A study of Mus musculus with 24 samples.

Results

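The 10 α- and β-tubulin genes examined here are Tuba1a, Tuba1b, Tuba1c, Tuba4a and Tuba8, which encode α-tubulins, and Tubb2a, Tubb2b, Tubb4b, Tubb5 and Tubb6, which encode β-tubulins. They were taken by gene symbol from a table of read counts of 18669 genes, in which every row is an NCBI gene number, and none of the measured values was used to choose them. All 10 passed the filter on low counts that left 13754 genes for testing. RNA with a poly(A) tail was sequenced from quadriceps femoris muscle of 24 mice, 2 in each of 12 groups, 4 h after treatment. The study asked how muscle responds to heat shock and to HSP90 inhibition, how far this depends on the transcription factor HSF1, and how it differs in a model of Huntington's disease.

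The mice were wild type, R6/2 or Hsf1-/-, all on a background labelled CBA x C57BL/6 F1. R6/2 mice carry, in every cell, a transgene of exon 1 of mutant human HTT under the human HTT promoter, and Hsf1-/- mice lack Hsf1 in the whole body. Heat shock (HS) was given under isoflurane with a heating pad at 41.5 °C for 15 min, and control mice were held at 36.9 °C for 21 min. NVP-HSP990 (HSP990), an inhibitor of the chaperone HSP90, was given by mouth at 12 mg/kg, suspended in methyl cellulose and saline, whereas the labels give saline alone for the vehicle mice. Wild type and R6/2 mice were 12 weeks old in every group, whereas Hsf1-/- mice were 10 weeks old in the HS experiment and 8 weeks old in the HSP990 experiment. The age and the Hsf1 genotype cannot be told apart. With 2 mice a group, the errors of the tests came from the spread pooled over the 12 groups. For a single gene, the smallest two-sided p that an exact permutation of 4 mice, 2 a side, could reach is 0.333.

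α- and β-tubulin form the dimer from which microtubules polymerize, and each is encoded by several genes, whose products are called isotypes. New tubulin chains are folded by the chaperonin CCT and by the tubulin cofactors, and cells destroy part of their tubulin mRNA when free tubulin dimers accumulate, by recognition of the first residues of the nascent chain. In skeletal muscle, microtubules form a lattice beneath the fibre surface and around the nuclei. α-Tubulin is widely used as a loading control on western blots, and an antibody to TUBA1a/b was among those used for the muscles of this study.

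The end of the α-tubulin coding sequence is shown for Tuba4a and Tuba8, the 2 most abundant α isotypes here, because many α-tubulins end in a tyrosine that is removed and put back enzymatically. The last 60 coding bases, with the final sense codon in capitals, were read from the mm9 genome. Tuba4a ends in a glutamate codon (GAG) and Tuba8 in a phenylalanine codon (TTT), so neither encodes a terminal tyrosine.
Tuba4a, chr1:75212200-75212259, minus strand: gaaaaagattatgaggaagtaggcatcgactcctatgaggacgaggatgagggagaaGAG
Tuba8, chr6:121176035-121176094, plus strand: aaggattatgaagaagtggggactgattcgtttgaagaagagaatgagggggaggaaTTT

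Tubb2a and Tubb2b, neighbours on chromosome 13, are shown because both had their highest levels in the same group of mice while their reads are hard to tell apart. Their last 60 coding bases differed at 3 positions, given in capitals.
Tubb2a, chr13:34166340-34166399, minus strand: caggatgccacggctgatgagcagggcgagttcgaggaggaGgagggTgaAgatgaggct
Tubb2b, chr13:34219343-34219402, minus strand: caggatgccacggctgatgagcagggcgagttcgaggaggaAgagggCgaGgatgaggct
Over the whole coding sequence, Tubb2a and Tubb2b were identical at 96.49% of aligned bases. Tuba1a and Tuba1b were identical at 98.3%, Tuba1b and Tuba1c at 97.94%, and Tuba1a and Tuba1c at 97.12%. Tuba4a and Tuba8 are more distant, and 97.27% and 99.36% of all 40-base windows of their transcripts occurred nowhere else in mm9 or in another transcript. The share of such unique windows was 96.81% in Tubb5, 99.24% in Tubb6, 46.47% in Tubb2a, 35.53% in Tubb2b, 34% in Tuba1c, 33.23% in Tubb4b, 23.76% in Tuba1a and 12.27% in Tuba1b. How reads that match several places were counted is not given in the sources used here. The counts of Tuba1a, Tuba1b, Tuba1c, Tubb2a, Tubb2b and Tubb4b are therefore uncertain in level, and a change in a member of a near-identical set may include reads of another.

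In mm9 the 10 genes lie on 7 chromosomes. Tuba1a (NCBI gene 22142), Tuba1b (22143) and Tuba1c (22146) lie together at chr15:98780272-98783982, chr15:98761856-98764996 and chr15:98860322-98868536. Tuba4a (22145) lies at chr1:75211549-75215828 and Tuba8 (53857) at chr6:121160752-121176872. Tubb2a (22151) lies at chr13:34166170-34169877, Tubb2b (73710) at chr13:34218877-34222223, Tubb4b (227613, named Tubb2c in the annotation) at chr2:25077680-25080222 and Tubb5 (22154) at chr17:35970871-35975251. Exons of Tuba4a overlap Stk16 on the other strand by 633 bases, those of Tuba8 overlap the transcript Gm15856 by 368 bases, and those of Tubb4b overlap Fam166a by 121 bases. The libraries were strand-specific, but whether the counting used strand is not given in the sources used here, so reads of these overlapping pairs cannot be told apart.

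Promoter sequence was taken from RefSeq (GRCm38.p6), where 8 of the 10 genes had an entry, Tubb2b and Tubb6 having none. The windows of 300 bases, 250 before and 50 after the start, were searched on both strands for GAANNTTC, a minimal form of the heat shock element bound by HSF1, and for CCAAT and TATAAA. GAANNTTC occurred in none of the 8 windows and in 7.86% of all 32851 promoter windows. CCAAT occurred in Tubb4b (5 matches), Tubb5 (2), Tuba1a (1) and Tuba1c (1), and in 37.4% of all windows. TATAAA occurred in Tubb2a and, 18 bases after the start, in Tubb4b, and in 13.6% of all windows. The 250 bases before the start are shown for Tubb2a, the gene called after HSP990, and for Tuba4a and Tuba8, the pair called in R6/2 mice, with any of the 3 motifs in capitals. Tubb2a carries TATAAA 29 bases before the start, and the other two sequences hold none of the 3 motifs.
Tubb2a, chr13:34078009-34078258, minus strand: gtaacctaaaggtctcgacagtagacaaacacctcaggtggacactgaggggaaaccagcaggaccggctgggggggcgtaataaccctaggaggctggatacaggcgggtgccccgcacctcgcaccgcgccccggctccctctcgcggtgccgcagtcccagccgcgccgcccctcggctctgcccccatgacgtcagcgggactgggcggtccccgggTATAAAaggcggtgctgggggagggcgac
Tuba4a, chr1:75219295-75219544, minus strand: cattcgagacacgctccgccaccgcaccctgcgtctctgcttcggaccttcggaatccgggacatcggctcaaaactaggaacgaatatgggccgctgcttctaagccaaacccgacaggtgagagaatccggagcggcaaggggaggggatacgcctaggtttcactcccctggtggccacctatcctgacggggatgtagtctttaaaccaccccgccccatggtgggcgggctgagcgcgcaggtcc
Tuba8, chr6:121210484-121210733, plus strand: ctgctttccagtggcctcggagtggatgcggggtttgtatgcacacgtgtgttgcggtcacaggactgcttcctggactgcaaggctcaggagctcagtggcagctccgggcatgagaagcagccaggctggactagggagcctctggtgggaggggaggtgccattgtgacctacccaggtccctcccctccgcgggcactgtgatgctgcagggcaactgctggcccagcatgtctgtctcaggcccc

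The libraries held 22450177 to 46599238 counts, of which the 10 tubulin genes took 0.1402% to 0.2201%. The targeted gene, Hsf1, was at 21.08 to 28.96 CPM (counts relative to the TMM-scaled size of the library) in the 8 Hsf1-/- mice and at 52.94 to 68.55 CPM in the 8 wild type mice, without overlap. Reads of Hsf1 thus remained in the Hsf1-/- mice, and which part of the transcript they cover cannot be seen in a table of gene counts. The heat shock gene Hspa1a was at 3.373 to 11.08 CPM in wild type control mice and at 960.9 to 1063 CPM after HS, and it stayed at or below 9.152 CPM in every Hsf1-/- mouse. Markers of muscle fibres, such as Acta1 and Ckm, were detected in every group, as the label of the tissue says. In the R6/2 mice the summed level of the 10 markers was 41010 to 82660 CPM, against 179200 to 240800 CPM in the other mice. The TMM scaling factors were 1.19 to 1.395 in the R6/2 libraries and 0.8079 to 0.954 in the others, so that levels in R6/2 mice depend on the scaling more than the others do. Since whole muscle was sequenced, fewer cells of a type and less RNA per cell cannot be told apart in any of the results.

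Tubulin mRNA of these muscles consisted mostly of 2 α isotypes and 1 β isotype. Per kb of exon, the median over the 24 libraries was 565 CPM for Tuba4a, 150.6 for Tuba8, 61.5 for Tubb4b, 18.6 for Tubb5 and 13.5 for Tubb6. Tuba1a followed at 4.77 CPM per kb, Tubb2a at 4.07, Tuba1b at 0.91, Tuba1c at 0.586 and Tubb2b at 0.445. Neighbours in this order whose ranges over the libraries did not overlap were Tuba4a and Tuba8, Tubb4b and Tubb5, and Tubb2a and Tuba1b. The ranges of all other neighbours overlapped. Within every library, though, Tuba8 lay above Tubb4b and Tubb6 above Tuba1a on this scale. The closest values of Tuba8 and Tubb4b were 70.11 and 69.32 CPM per kb, in the second R6/2 vehicle mouse. The order within the remaining overlapping neighbours is not settled. Each member was counted in every library, down to 10 counts for Tubb2b.

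Divided by the length of sequence found only once, the median was 247.7 CPM per unique kb for Tubb4b, 20.55 for Tuba1a, 8.976 for Tubb2a and 8.16 for Tuba1b, which is the level each would have if only uniquely placed reads had been counted. On that scale Tubb4b passed Tuba8, at 154.3 CPM per unique kb, while Tuba4a stayed first at 592.1. The Tubb4b transcript searched was 1598 bases long, against 2.088 kb of exon in the gene, and the rest was not searched. Its unique length may thus be too small, and its place above Tuba8 is not settled. For Tubb5 the transcript was 2644 bases long, against 3.322 kb of exon. The rank of Tuba4a thus held on both scales, whereas Tubb4b and Tuba1a each stood a place higher per unique kb.

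**Figure D1:**
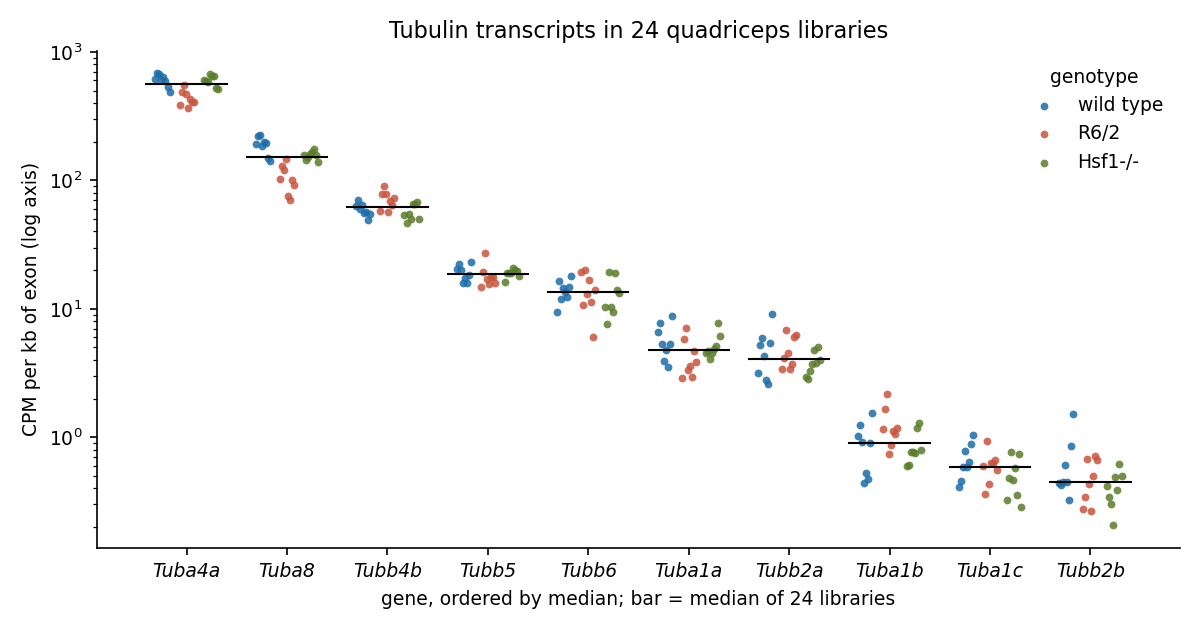
Level of each tubulin gene in each of the 24 libraries, in CPM per kb of exon on a log axis, coloured by genotype, with a bar at the median. Tuba4a (565 CPM per kb) and Tuba8 (150.6) stand at the top, and on this TMM scale the R6/2 points of both lie mostly below the others.

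**Figure D2:**
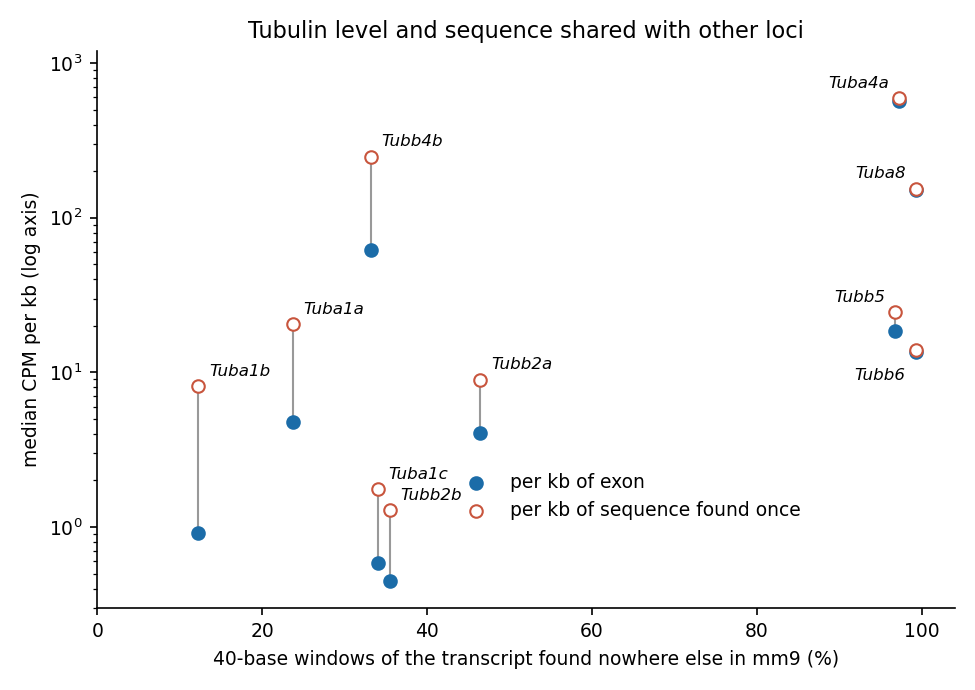
Median CPM per kb on a log axis against the percentage of 40-base windows of the transcript that occur nowhere else in mm9. Filled points are per kb of exon and open points per kb of sequence found once, and the gap between them is widest for Tuba1b (12.27% unique windows).

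Within the α family, Tuba4a made up 75.22% and Tuba8 23.76% of the summed level per kb in wild type control mice, and the 3 Tuba1 genes shared the rest. The share of Tuba8 ranged over the 12 group means from 15.39% in R6/2 vehicle mice to 24.06% in wild type vehicle mice. Within the β family, Tubb4b made up 53.46% to 67.04%, lowest in wild type mice given HSP990 and highest in R6/2 mice given HSP990. Tubb2a, a β isotype abundant in neurons, made up 3.022% of β-tubulin mRNA in wild type vehicle mice and 7.365% after HSP990, as group means with no test. Over the 12 group means Tubb5 ranged from 16.28% to 22.13%, Tubb6 from 9.611% in R6/2 mice given HSP990 to 16.82% in wild type mice given HSP990, and Tubb2b from 0.2811% in Hsf1-/- mice after HS to 1.195% in wild type mice given HSP990.

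With TMM scaling, untreated R6/2 mice had less mRNA of both main α isotypes than wild type mice, which for Tuba4a rests on that scaling. Tuba8 was 2.185-fold lower and Tuba4a 1.51-fold lower, and these were the 2 of 10 tubulin genes called in this comparison, in which 30.5% of all genes tested were called, 15.1% higher and 15.4% lower. Control and vehicle mice of each genotype, 4 a side, were compared.

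Tuba8, an α isotype found mainly in striated muscle and testis, was at 424.1 and 489.4 CPM in wild type control mice and at 438.7 and 433.4 CPM in wild type vehicle mice. The R6/2 mice were at 228.3 and 285.8 CPM in the control group and at 168.7 and 156 CPM in the vehicle group. All 4 R6/2 mice lay below all 4 wild type mice. The log2 fold change was -1.13 ± 0.0962 (SE; adjusted p = 6.1e-07, from edgeR's quasi-likelihood F-test, adjusted by the Benjamini-Hochberg method over all genes tested). Within the HS experiment it was -0.83 (adjusted p = 0.0012) and within the HSP990 experiment -1.43 (adjusted p = 1.1e-05).

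Tuba4a, the main α isotype, was at 1268 and 1397 CPM in wild type control mice and at 1311 and 1211 CPM in wild type vehicle mice. The R6/2 mice were at 795.2 and 992.3 CPM in the control group and at 752 and 887.5 CPM in the vehicle group. The 2 genotypes did not overlap. The log2 fold change was -0.60 ± 0.0913 (SE; edgeR adjusted p = 1.3e-04), and within the experiments it was -0.58 (adjusted p = 0.0085) and -0.62 (adjusted p = 0.0030).

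The difference in Tuba4a depends on the scaling. With library size only, the median of all genes tested moved from 0.05 to 0.66 on the log2 scale, the log2 fold change of Tuba4a became 0.01 (adjusted p = 0.95) and that of Tuba8 -0.52 (adjusted p = 7.4e-05). Relative to the median of all genes, Tuba4a was at -0.65 under both scalings and Tuba8 at -1.18. Beside these falls, 8 of 10 muscle fibre markers were called lower in R6/2 mice and 0 higher, or 7 and 1 with library size only. The median over the 10 markers was -1.81 on the log2 scale, or -1.21 with library size only. Acta1, the α-actin of the sarcomere, had a log2 fold change of -2.61 and Ckm, the muscle creatine kinase, -2.03. The part of muscle fibre content in the tubulin values was not tested.

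Ratios of tubulin genes within a library do not depend on any scaling. They were chosen once the values were known, so their p-values, adjusted or not, are no independent test. The ratio of Tuba8 to Tuba4a per kb was 0.3085 to 0.3303 in the 4 untreated wild type mice and 0.1622 to 0.2658 in the 4 untreated R6/2 mice, again without overlap. The log2 difference was -0.53 ± 0.172 (SE; exact two-sided permutation p = 0.0286, the smallest that 4 mice against 4 allow, and 0.0381 adjusted over 4 ratio tests). With mice exchanged only within each experiment the p was 0.0556 for this and for the other two ratios that separated, the smallest that design allows and above 0.05. It was -0.25 within the HS experiment and -0.80 within the HSP990 experiment. The ratio of Tuba4a to Tubb4b was 9.667 to 11.37 in wild type and 6.203 to 6.717 in R6/2 mice, a log2 difference of -0.69 ± 0.061 (SE; exact two-sided permutation p = 0.0286, adjusted p = 0.0381). Tubb4b is the main β isotype per kb.

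**Figure D3:**
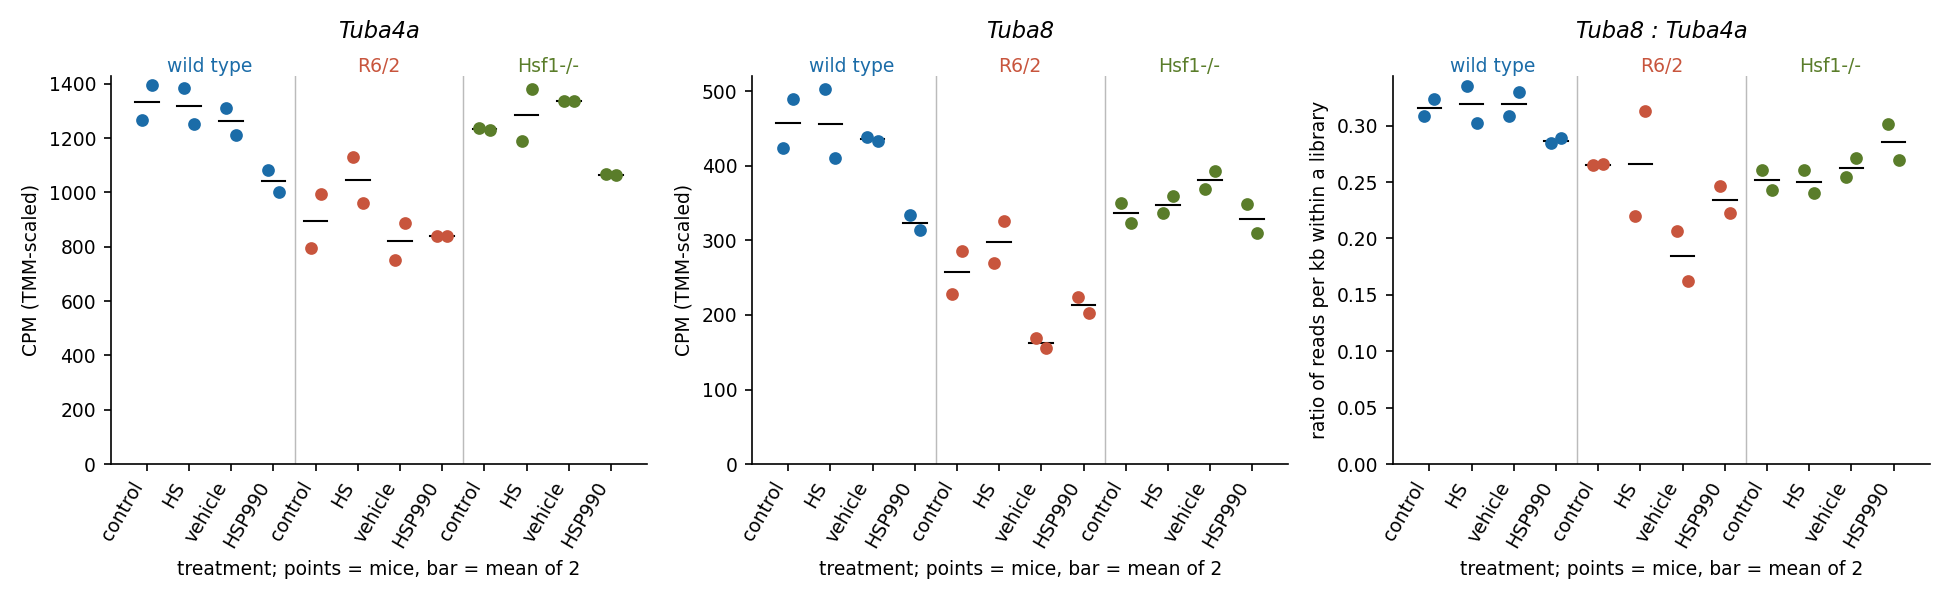
TMM-scaled CPM of Tuba4a and Tuba8, and the ratio of Tuba8 to Tuba4a per kb within a library, in each mouse (points, n = 2 a group) with the group mean (bar). The untreated R6/2 mice lie below the untreated wild type mice in all 3 panels, and one R6/2 mouse after HS has a ratio of 0.3127, within the wild type range.

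The other tubulin genes were not called in R6/2 mice. Tuba1a, the α isotype typical of developing neurons, had a log2 fold change of -0.54 (edgeR adjusted p = 0.11) and was called only when the second R6/2 control mouse was left out. Tuba1b, a broadly expressed α isotype, had 0.64 (adjusted p = 0.15). Tubb4b had 0.09, Tubb5, a broadly expressed β isotype, -0.17, and Tubb6 (NCBI gene 67951, chr18:67550371-67562402), a β isotype known to rise in regenerating muscle, 0.16. Tubb2a had 0.12, Tubb2b -0.26 and Tuba1c 0.10, each within 1 SE of 0. Under library size only, Tubb2a, Tubb4b, Tubb5, Tubb6 and Tuba1b were called higher, and 9 of the 10 had a log2 fold change above 0, so that these calls and the directions of Tubb5, Tubb2b and Tuba1a rest on the scaling.

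In untreated Hsf1-/- mice no tubulin gene was called against wild type by edgeR or by DESeq2. Of all genes, 0.974% were called by edgeR (0.284% higher and 0.691% lower). Of the 10 tubulin genes 1 had an unadjusted p below 0.05, against 14.5% of all genes. That gene was Tuba8, at 350.1 and 322.8 CPM in Hsf1-/- control mice and at 368.3 and 392.9 CPM in Hsf1-/- vehicle mice. All 4 lay below the 4 wild type mice, with a log2 fold change of -0.32 ± 0.0951 (SE; edgeR adjusted p = 0.13). Tuba4a was at 1228 to 1338 CPM, within the wild type range, with a log2 fold change of -0.01. The ratio of Tuba8 to Tuba4a was 0.2427 to 0.2711, below all 4 wild type mice. The log2 difference was -0.31 ± 0.0417 (SE; exact two-sided permutation p = 0.0286, adjusted p = 0.0381), with -0.33 and -0.28 in the 2 experiments. With mice exchanged only within each experiment the permutation p was 0.0556. The ratio was chosen once these values were known, so its p is no independent test beside Tuba8 itself. Hsf1-/- mice were younger than wild type mice, so age and genotype cannot be told apart here. The ratio of Tuba4a to Tubb4b did not separate them (log2 difference 0.09 ± 0.106 SE, exact two-sided permutation p = 0.4286).

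After HSP990, wild type mice had more Tubb2a mRNA. It was at 4.429 and 4.11 CPM in vehicle mice and at 8.582 and 14.5 CPM after HSP990, a 2.71-fold difference without overlap. The log2 fold change was 1.44 ± 0.288 (SE; edgeR adjusted p = 0.016), and Tubb2a was the 1 of 10 tubulin genes called, where 1.85% of all genes tested were called, 1.45% higher and 0.407% lower. The call was fragile. The adjusted p was 0.082 and 0.22 without the first or second vehicle mouse, 0.24 without the second HSP990 mouse (log2 fold change 1.01), and 0.085 with only these 4 libraries in the fit, while DESeq2 gave 2.7e-04.

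Tubb2b, its near-identical neighbour, was at 0.8692 and 0.6204 CPM in vehicle mice and at 1.647 and 2.906 CPM after HSP990. Its log2 fold change of 1.62 ± 0.416 (SE) missed the threshold (edgeR adjusted p = 0.059) and passed it with DESeq2. Tuba1b was at 0.9933 and 0.8918 CPM and then at 1.696 and 2.872 CPM, a log2 fold change of 1.28 (adjusted p = 0.23). Tuba1a was at 7.905 and 5.778 CPM and then at 8.732 and 14.6 CPM, a log2 fold change of 0.78 (adjusted p = 0.35). In Tubb2a, Tubb2b, Tuba1a and Tuba1b both HSP990 mice lay above both vehicle mice, and the second HSP990 mouse was the highest. The same order was seen in Tuba1c, Tubb5 and Tubb6, so it is not particular to these 4 genes. The share of all genes with this order was not computed. Wild type control mice of the HS experiment were at 10.93 and 12.88 CPM for Tuba1a, within the range of the HSP990 mice. For Tuba1b they were at 1.934 and 2.351 CPM, also within that range. They were at 5.037 and 8.323 CPM for Tubb2a and at 0.8544 and 0.8211 CPM for Tubb2b, below both HSP990 mice.

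The 2 main α isotypes had lower values in the same mice. Tuba8 was at 438.7 and 433.4 CPM in vehicle mice and at 334 and 313.7 CPM after HSP990, a log2 fold change of -0.43 ± 0.135 (SE; edgeR adjusted p = 0.13). Tuba4a was at 1311 and 1211 CPM and then at 1084 and 1001 CPM, a log2 fold change of -0.27 ± 0.129 (SE; adjusted p = 0.37). Both missed the threshold. In all, 6 of the 10 tubulin genes had an unadjusted p below 0.05, against 13.2% of all genes tested, 4 of them higher and 2 lower. Tubb4b had a log2 fold change of -0.12, Tubb5 0.30, Tubb6 0.34 and Tuba1c 0.65.

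Markers of several other cell types, though not of all, were also higher in these wild type mice after HSP990. The 6 adipocyte markers summed to 85.01 to 252.5 CPM in vehicle mice and to 68.76 to 334.8 CPM after HSP990, which overlap. The 5 Schwann cell and nerve markers in the table summed to 74.38 to 82.51 CPM and then to 94.25 to 103.7 CPM. The 8 leukocyte markers summed to 41.02 to 42.71 CPM in vehicle mice, with Cd3e at 0 in both, and to 65.01 to 89.03 CPM after HSP990. Of them 7 were higher, and Lyz2, a lysozyme of myeloid cells, was called (log2 fold change 1.07, edgeR adjusted p = 0.034). The 6 fibroblast markers summed to 795.4 to 812 CPM and then to 1298 to 1330 CPM, with 6 of 6 higher and none called, and the 7 endothelial markers to 363.5 to 447.6 CPM and then to 551.5 to 633.8 CPM, with 6 of 7 higher and none called. The 6 proliferation markers in the table summed to 16.44 to 19.45 CPM and then to 23.11 to 25.7 CPM. The 10 markers of regenerating or immature fibres summed to 231.1 to 231.9 CPM and then to 255.4 to 404.5 CPM, with 9 of 10 higher, and the 6 markers of smooth muscle and pericytes to 307.3 to 308.9 CPM and then to 336.5 to 394.8 CPM, with 5 of 6 higher. Muscle fibre markers had the opposite sign, with 0 of 10 higher and sums of 210800 to 216400 CPM and then 194600 to 206900 CPM. None of these 3 lists had a called member. Their part in the values of Tubb2a, Tuba4a and Tuba8 was not tested.

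**Figure D4:**
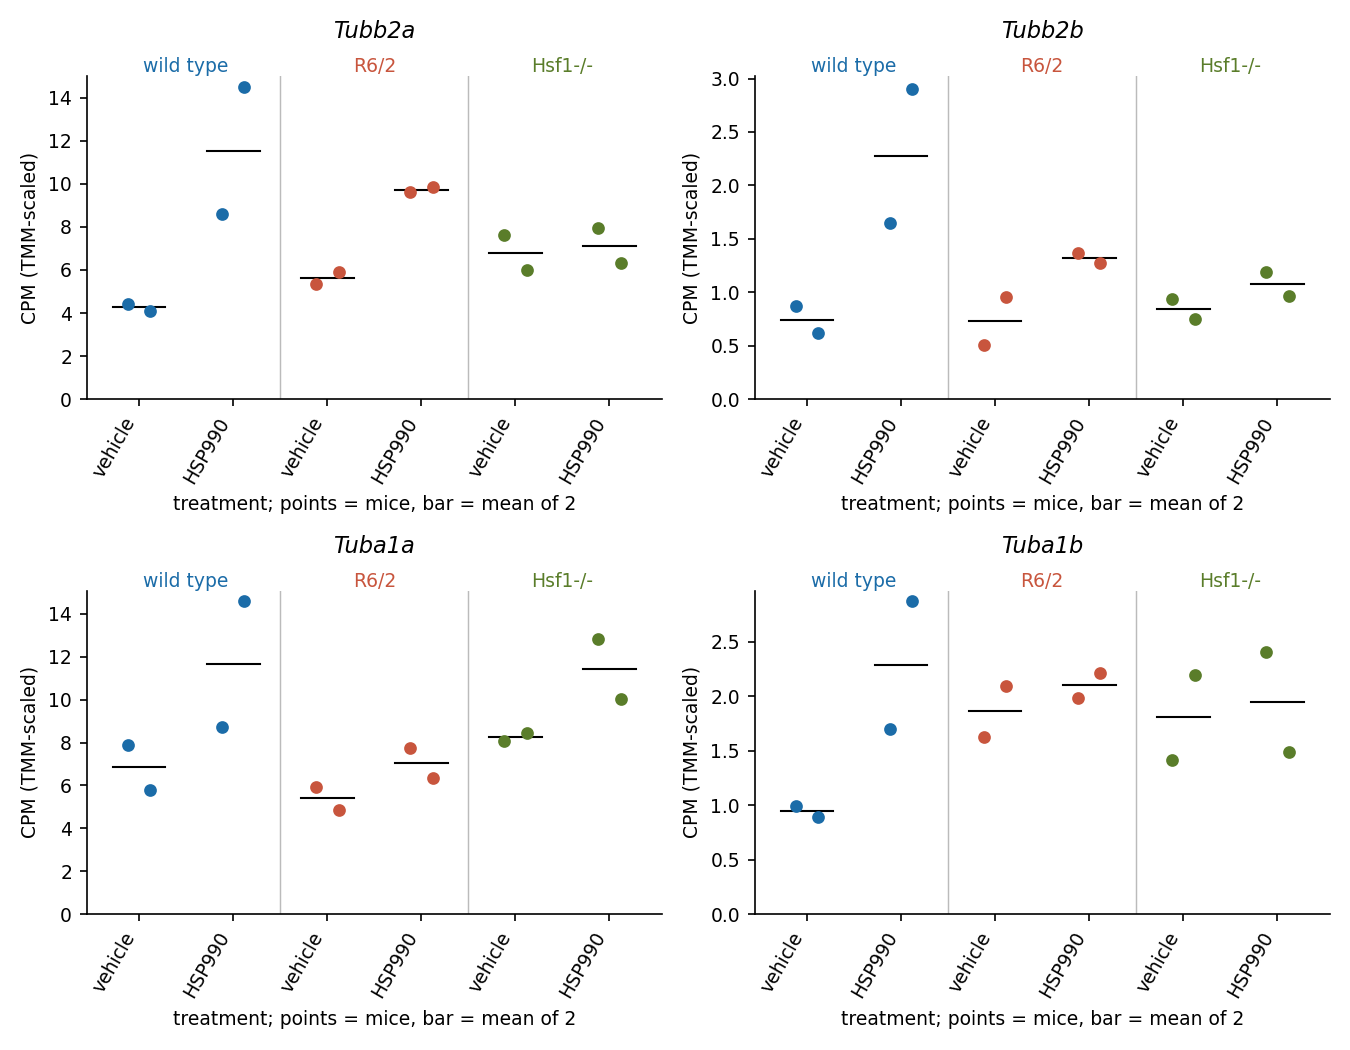
TMM-scaled CPM of Tubb2a, Tubb2b, Tuba1a and Tuba1b in each mouse of the HSP990 experiment (points, n = 2 a group) with the group mean (bar), by genotype. Tubb2a goes from 4.11 to 4.429 CPM in wild type vehicle mice to 8.582 to 14.5 CPM after HSP990, while the Hsf1-/- groups overlap.

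In R6/2 mice no tubulin gene was called after HSP990 by edgeR or by DESeq2. Of all genes, 1.43% were called by edgeR (0.473% higher and 0.96% lower). Of the 10 tubulin genes 3 had an unadjusted p below 0.05, against 9.5% of all genes. Tubb2a was at 5.339 and 5.908 CPM in vehicle mice and at 9.611 and 9.864 CPM after HSP990, without overlap, with a log2 fold change of 0.79 ± 0.277 (SE; edgeR adjusted p = 0.26). Tubb2b had 0.85 (adjusted p = 0.53). Tuba8 was at 168.7 and 156 CPM and then at 224.2 and 203.1 CPM, a log2 fold change of 0.40 ± 0.135 (SE; adjusted p = 0.24), the opposite direction from wild type mice. Muscle fibre markers had the same signs, with 8 of 10 higher after HSP990 in R6/2 mice (median log2 fold change 0.37) and 0 of 10 higher in wild type mice (median -0.16), and their part in the Tuba8 values was not tested. The difference between the Tuba8 responses, R6/2 minus wild type, was 0.83 ± 0.19 (SE) on the log2 scale, with an adjusted p of 0.30 by edgeR and 0.03 by DESeq2. For Tubb2a that difference was -0.65 (edgeR adjusted p = 0.78), which does not show that the 2 genotypes responded alike.

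In Hsf1-/- mice Tubb2a was at 7.627 and 5.978 CPM in vehicle mice and at 7.963 and 6.306 CPM after HSP990, and the groups overlapped. The log2 fold change was 0.07 ± 0.282 (SE; edgeR adjusted p = 0.96). The difference from the wild type response was -1.36 ± 0.401 (SE; unadjusted p = 0.00354 in edgeR's fit across all genes, adjusted p = 0.29), so that a difference between the genotypes was not called. The Hsf1-/- vehicle mice had more Tubb2a than the wild type vehicle mice, whereas the Hsf1-/- control mice, at 4.698 and 4.537 CPM, had less than the wild type control mice, at 5.037 and 8.323 CPM. No tubulin gene was called in Hsf1-/- mice after HSP990 by edgeR or by DESeq2. Of all genes, 0.218% were called by edgeR (0.167% higher and 0.0509% lower). Of the 10 tubulin genes 1 had an unadjusted p below 0.05, against 9.48% of all genes. That gene was Tuba4a, at 1337 and 1338 CPM in vehicle mice and at 1066 and 1063 CPM after HSP990 (log2 fold change -0.33 ± 0.129 SE, edgeR adjusted p = 0.41).

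After HS no tubulin gene was called in any genotype. In wild type mice 0 of 10 were called by edgeR and by DESeq2, where 2.06% of all genes were called by edgeR (1.59% higher and 0.465% lower). An unadjusted p below 0.05 was reached by 0 of the 10, against 11.8% of all genes. The counts were also 0 of 10 by each of these measures in R6/2 and in Hsf1-/- mice. There 8.12% and 8.8% of all genes had an unadjusted p below 0.05. Of all genes edgeR called 0.0436% in R6/2 mice and 0.00727% in Hsf1-/- mice. These shares rest on 6 and 1 genes, which became 127 and 161 with DESeq2, 500 without the second R6/2 HS mouse and 98 with only the Hsf1-/- groups compared. Tuba4a was at 1384 and 1250 CPM in wild type mice after HS, overlapping the control mice, with a log2 fold change of -0.02 ± 0.129 (SE). Tuba8 was at 503.3 and 409.9 CPM (log2 fold change -0.0005 ± 0.134 SE). Tubb2a was at 9.36 and 6.738 CPM after HS and at 5.037 and 8.323 CPM in control mice, which overlap (0.27 ± 0.282 SE). The log2 fold changes farthest from 0 were those of Tuba1b at -0.74 ± 0.467, Tuba1c at 0.65 ± 0.482 and Tuba1a at -0.65 ± 0.349 (SE).

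In R6/2 mice all 10 log2 fold changes after HS were above 0, with a median of 0.30, against 50.2% of all genes. The values ran from 0.05 for Tuba1b to 0.85 for Tubb2b, and none passed the threshold. After HS the first R6/2 mouse had Tubb5 at 89.59 CPM and the second at 56.95 CPM, so that the spread within the group was as large as most of these differences. The TMM factors were 1.261 and 1.19 in the R6/2 HS libraries and 1.347 and 1.3 in the R6/2 control libraries. The signs of the smallest changes may therefore depend on the scaling. All 10 genes were read from the same libraries, so their signs are not independent. The 10 tubulin genes had a median log2 fold change of -0.01 in wild type and 0.09 in Hsf1-/- mice.

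The responses to HS and to HSP990 were compared directly in wild type mice. No tubulin gene was called by edgeR or DESeq2, where 2.38% of all genes were called by edgeR (1.32% higher and 1.06% lower). Of the 10 tubulin genes 6 had an unadjusted p below 0.05, against 14.9% of all genes. The HS response minus the HSP990 response was -1.17 ± 0.401 (SE) for Tubb2a (edgeR adjusted p = 0.15), -2.03 ± 0.669 for Tuba1b (adjusted p = 0.14) and -1.42 ± 0.494 for Tuba1a (adjusted p = 0.16). Each response is relative to its own untreated group. Mean levels in control and in vehicle mice were 6.68 and 4.269 CPM for Tubb2a and 2.142 and 0.9426 CPM for Tuba1b. For Tuba1a they were 11.9 and 6.841 CPM. The part of these gaps in the differences was not tested. In R6/2 mice none of the 10 was called by either tool, where edgeR called 1.63% of all genes (1.33% higher and 0.298% lower). An unadjusted p below 0.05 was reached by 0 of the 10, against 10.5% of all genes. In Hsf1-/- mice none was called by either tool, where edgeR called 0.145% (0.0945% higher and 0.0509% lower). An unadjusted p below 0.05 was reached by 1 of the 10, against 10.9% of all genes. The responses of R6/2 and wild type mice to HS, and of Hsf1-/- and wild type mice to HS, also differed for none of the 10 by either tool. Of all genes edgeR called 0.0727% and 0.16%. An unadjusted p below 0.05 was reached by 1 and 0 of the 10, against 4.86% and 3.72% of all genes. The HSP990 responses of Hsf1-/- and wild type mice differed for none by either tool, where edgeR called 0.422% (0.0945% higher and 0.327% lower). An unadjusted p below 0.05 was reached by 2 of the 10, against 6.89% of all genes. For the HSP990 responses of R6/2 and wild type mice edgeR called 0 of all genes and of the 10, and DESeq2 called Tuba8. An unadjusted p below 0.05 was reached by 1 of the 10, against 7.13% of all genes.

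**Figure D5:**
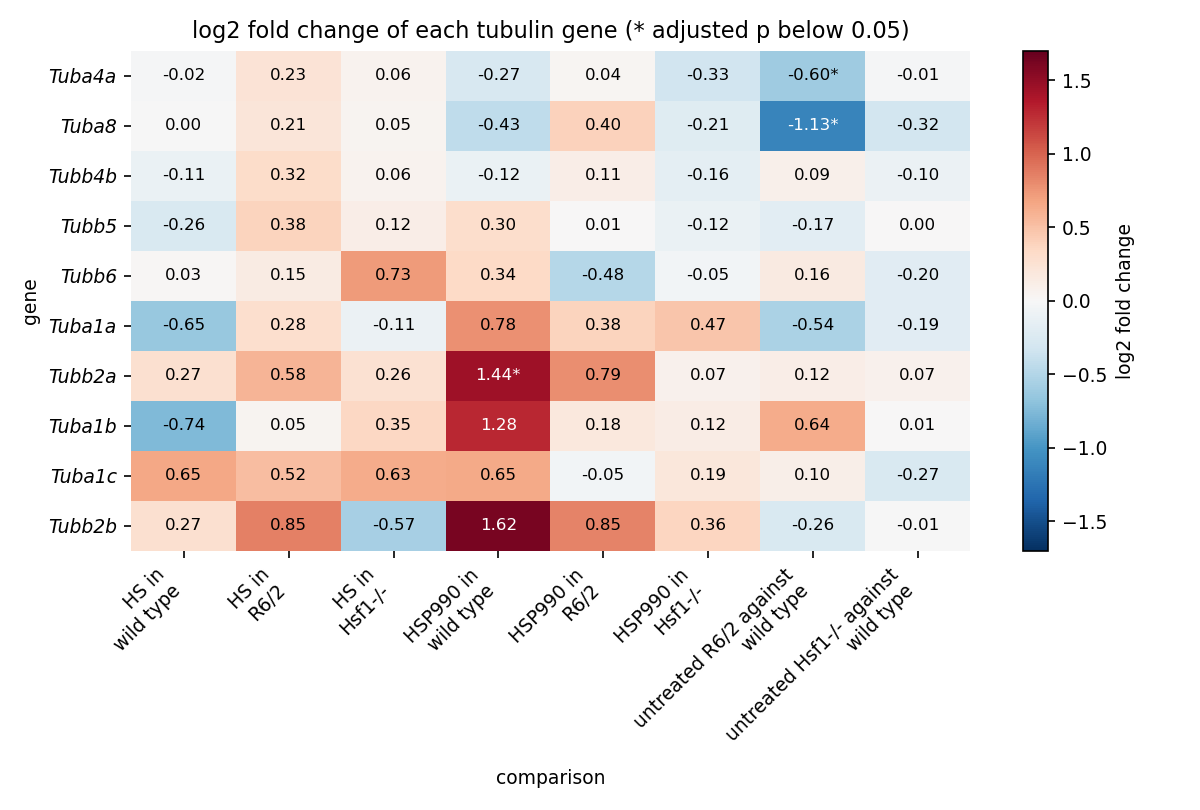
Log2 fold change of each tubulin gene (rows, ordered by level) in the 6 treatment comparisons and the 2 comparisons of untreated mice (columns), from the fit of all 24 libraries. An asterisk marks an adjusted p below 0.05, reached by Tubb2a after HSP990 in wild type mice (1.44) and by Tuba4a (-0.60) and Tuba8 (-1.13) in untreated R6/2 mice. With library size only the difference in Tuba4a is lost (0.01).

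Of 21 tubulin folding genes tested, 3 rose in wild type mice after HSP990 and none fell, beside the 1.45% of all genes called higher. All 3 are subunits of the chaperonin CCT. Cct7 went from 132.3 to 136.3 CPM in vehicle mice to 218.6 to 234 CPM after HSP990 (log2 fold change 0.75, edgeR adjusted p = 0.0063). Cct3 rose by 0.60 (adjusted p = 0.030) and Cct6a by 0.53 (adjusted p = 0.013). In R6/2 mice Cct6a alone was called (0.43, adjusted p = 0.045), a call lost with RLE size factors. In Hsf1-/- mice 0 were called by edgeR and by DESeq2, and 1 had an unadjusted p below 0.05, against 9.48% of all genes. The Cct7 response differed between Hsf1-/- and wild type mice, by -1.01 ± 0.189 (SE; adjusted p = 0.019), with 117.5 to 134.8 CPM in Hsf1-/- vehicle mice and 102.9 to 108 CPM after HSP990. The median of the 21 was 0.10 in wild type mice, against -0.0011 for all genes. After HS edgeR called 0 of the 21 in any genotype, and DESeq2 called 1 in wild type mice. In wild type, R6/2 and Hsf1-/- mice 4, 3 and 0 had an unadjusted p below 0.05, against 11.8%, 8.12% and 8.8% of all genes.

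Mapt, which encodes the microtubule-binding protein tau, rose after both treatments in wild type mice. It went from 116.6 to 119.7 CPM in control mice to 182.8 to 188.7 CPM after HS (log2 fold change 0.65, edgeR adjusted p = 0.038), and from 159.4 to 176.4 CPM in vehicle mice to 260 to 267.6 CPM after HSP990 (0.65, adjusted p = 0.041). It was the 1 gene called among 24 microtubule-associated proteins tested in each of these comparisons, where 2.06% of all genes were called after HS and 1.85% after HSP990. The HS call was lost with library size only. Of the 17 tubulin-modifying enzymes and 15 motor genes tested, 0 were called after either treatment in any genotype by edgeR or DESeq2. In a comparison 0 to 3 enzymes and 0 to 1 motor genes had an unadjusted p below 0.05, against 8.12% to 13.2% of all genes.

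Genes of the microtubule system were also called in untreated R6/2 mice, where 30.5% of all genes were called, 15.1% higher and 15.4% lower. Whether any list differed from all genes, in total or by direction, was not tested. With library size only, which puts the median of all genes at 0.66, 0 members of the 5 lists described here were called lower. Of 17 tubulin-modifying enzymes, 5 rose and 1 fell, or 11 and 0 with library size only. Atat1, the α-tubulin acetyltransferase, was at 1.449 to 1.889 CPM in untreated wild type and 4.626 to 6.101 CPM in untreated R6/2 mice (log2 fold change 1.73, edgeR adjusted p = 3.5e-04). Hdac6, which deacetylates α-tubulin, rose by 0.83 (adjusted p = 1.8e-05) and Ttll1, a polyglutamylase subunit, by 0.85 (adjusted p = 6.8e-04). The 1 that fell was Ttll4, another polyglutamylase (-0.73, or -0.12 with library size only), named after its value was seen. Hdac6 and Atat1 have opposite known activities, and both were higher.

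Of 24 microtubule-associated proteins, 8 rose and 1 fell in R6/2 mice, or 20 and 0 with library size only. Stmn1, which binds free tubulin dimers, had a log2 fold change of 1.55 (edgeR adjusted p = 0.045) at levels of 0.2026 to 0.3744 CPM in untreated R6/2 mice, Mapt 0.91 (adjusted p = 1.7e-05) and Fgd1 0.80 (adjusted p = 0.0018). Fgd1, an exchange factor for Cdc42, acts on the actin cytoskeleton, and the list also holds Ttll3, a tubulin-modifying enzyme. Mapre2, an end-binding protein, was the 1 that fell (-0.44, or 0.17 with library size only) and was named after its value was seen. Of 15 motor genes 5 rose and 1 fell, or 13 and 0 with library size only, with Kif1b, a kinesin of axonal transport, at -0.92 (adjusted p = 0.0075), Kif3b at 0.59 (adjusted p = 0.034) and the kinesin light chain Klc4 at 0.39 (adjusted p = 0.0036). Of the 21 folding genes 5 rose and 2 fell, or 20 and 0 with library size only. They were led by Tbcel at 0.85 (adjusted p = 2.5e-05), Tbcb at 0.48 (adjusted p = 0.0056) and Tbcc at 0.45 (adjusted p = 0.027), all cofactor genes. The 2 that fell were Cct6a (-0.35) and Pfdn6 (-0.33), named after their values were seen, which had 0.26 and 0.28 with library size only.

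Among 10 further tubulin genes, 7 were tested, and 1 rose and 3 fell in R6/2 mice, or 1 and 0 with library size only, where Tubg1 and Tubd1 had 0.06 and 0.02. Tube1 (ε-tubulin) had a log2 fold change of -0.83 (edgeR adjusted p = 0.016), Tubg2 (γ-tubulin) 0.77 (adjusted p = 0.0092), Tubd1 (δ-tubulin) -0.58 (adjusted p = 6.2e-04) and Tubg1, the main γ-tubulin of microtubule nucleation, named after its value was seen, -0.54 (adjusted p = 4.1e-04). γ-, δ- and ε-tubulin belong to centrosomes and centrioles and form no part of the microtubule wall. In Hsf1-/- mice 1 folding gene, Cct3 (-0.47, edgeR adjusted p = 0.027), and 1 microtubule-associated gene, Clasp1 (0.36, adjusted p = 0.014), were called against wild type, where 0.974% of all genes were called. By either tool 0 modifying enzymes, motor genes and further tubulin genes were called. Of them 1, 3 and 1 had an unadjusted p below 0.05, against 14.5% of all genes.

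The genes with the most similar pattern to a tubulin gene were found by Pearson's r over the 12 group means, as a description. The points share the same libraries and scaling. For Tuba8 they were Bckdk (r = 0.9923), Phb2 (0.9832) and Ndufa8 (0.9806), and for Tuba4a Elp3 (0.9858), Gps2 (0.9816) and Adsl (0.9751). For Tubb2a they were Myo1d (0.916), Cnpy4 (0.8709) and Slc5a3 (0.8666), and for Tubb4b Map11 (0.9494). Among the tubulin genes themselves, Tuba4a and Tuba8 had r = 0.9276 and Tubb2a and Tubb2b r = 0.8392, the latter pair with 754 40-base windows in common.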

How the data were processed

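Per the labels and the study's methods, the authors made strand-specific paired-end libraries from poly(A) RNA and mapped the reads to mm9 with Bowtie, asking for the best placement of each read. They deposited raw read counts per gene, not normalized, for 24 mice in 1 table. The program that counted reads and the annotation are not given in the sources used here. Of 18669 rows, 18594 matched a gene symbol. Testing was limited to the 13754 genes that reached 2 counts in 10 or more of the 24 libraries. Counts were scaled with TMM and fitted over 12 groups in edgeR 4.0.16 under R 4.3.3, and 15 contrasts were tested by quasi-likelihood with Benjamini-Hochberg adjustment at 0.05. Errors of log2 fold changes are standard errors from that fit. R6/2 mice were compared with wild type littermates, but no source ties a replicate number to a litter. Mice with the same number in different groups did not deviate together (10 of 66 correlations above 0.1), so no block was used.

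All 10 tubulin genes were described in every group. From the other gene lists (folding genes, modifying enzymes, microtubule-associated proteins, motors, further tubulin genes and markers of cell types), up to 3 called genes with the largest change were named, and genes named otherwise are marked. The genes, the lists and the tests were chosen with earlier results of these data known. Shared sequence was counted as 40-base windows of each transcript found elsewhere in mm9. The coding ends of the other α-tubulin genes are not reported here. The alternatives were RLE size factors, library size only, other filters, a replicate block, only the groups compared, DESeq2 1.42.0, single experiments and leaving out each mouse. The procedure was tested on simulated data. The 2 mice of a group differed by more than counting error (chi-square divided by its degrees of freedom, 19.42 to 110.2).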

Additional observations from a re-analysis of the deposited data

Results flagged for a closer look

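The HS and HSP990 responses of R6/2 and of Hsf1-/- mice were each compared with those of wild type mice for all 10 tubulin genes. In 5 cases both treated mice of 1 genotype lay above both untreated mice, and both treated mice of the other genotype lay below theirs. The share of all genes with this pattern was not computed, so whether 5 cases exceed what chance gives is not known. The responses of R6/2 and Hsf1-/- mice were not compared with each other. None of the 5 differences was called by edgeR. For Tuba8 after HSP990, the R6/2 minus wild type difference was 0.83 on the log2 scale (edgeR adjusted p = 0.30, DESeq2 adjusted p = 0.03). For Tubb5 after HSP990, the Hsf1-/- minus wild type difference was -0.42 (edgeR adjusted p = 0.82). After HS, the Hsf1-/- minus wild type differences were -0.84 for Tubb2b, 0.38 for Tubb5 and 1.09 for Tuba1b (each edgeR adjusted p = 1.0).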

How the results depend on the processing

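Of the 15 counts of called tubulin genes, 13 were 0, so an unchanged count says little about stability. Of 109 alternatives other than leaving out a mouse 4 moved a count by over 1.5 times, as did 3 of 96 that left out a mouse. After HSP990 in wild type mice, 1 tubulin gene was called, against 0 with only the groups compared, 2 with DESeq2 (Tubb2a and Tubb2b), and 0 to 1 when a mouse was left out, with 0 without the first or second vehicle mouse or the second HSP990 mouse. In untreated R6/2 mice 2 were called, against 6 with library size only (Tubb2a, Tubb4b, Tubb5, Tubb6, Tuba1b and Tuba8), where 8876 of all genes were called. The log2 fold change of Tuba4a was then 0.0066, so that its difference was lost. Without 1 mouse the count was 2 to 3. For the HSP990 response of R6/2 minus wild type mice, 0 were called by edgeR and 1 by DESeq2 (Tuba8). The causes were not tested. The fits with and without a replicate block called the same counts, 1 after HSP990 in wild type mice and 2 in untreated R6/2 mice, and Tubb2a kept 1.44 under the block (adjusted p = 0.023). Genes with few counts limit precision: Tubb2b had as few as 10 counts in a library.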
